A study of Homo sapiens with 6 samples.

Results

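The pathway of the transcriptional coactivator YAP was followed through 10 genes in OVCA433 cells, a line of high-grade serous ovarian cancer, cultured with or without added versican. They were taken as a named set, with earlier results of these data known, and matched by symbol in the platform annotation: YAP1, WWTR1, TEAD1, LATS2, AMOTL1, AMOTL2, AJUBA, CCN1 (annotated as CYR61), CCN2 (annotated as CTGF) and ANKRD1. All 10 were measured, by 26 of the 54675 probe sets of the Affymetrix Human Genome U133 Plus 2.0 array, among 19775 genes in all. Cells grew in RPMI1640 with 10% fetal bovine serum. At 24 hours after seeding, control dishes (3 arrays) received fresh medium without versican and treated dishes (3 arrays) received fresh medium with it. Versican is a matrix proteoglycan that carries chondroitin sulfate chains. RNA was taken 48 hours later. The sources used here do not give the dose or form of versican. The harvest protocol mentions a transfection, and the sample names do not. The series calls the samples of a group independent, but nothing says that they came from separate cultures. P-values thus reflect only how far these 6 samples scatter, and that scatter may be technical. One cell line was studied.

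YAP and its paralog TAZ, the product of WWTR1, carry no DNA-binding domain and act in the nucleus by binding TEAD transcription factors. The Hippo kinase cascade ends in LATS1 and LATS2, which phosphorylate both coactivators and hold them in the cytoplasm. Cell density, matrix stiffness and actin tension are known to set how much YAP and TAZ reach the nucleus, and much of this regulation acts on the proteins rather than on their mRNA. CCN1, CCN2 and ANKRD1 are widely used readouts of nuclear YAP and TAZ. LATS2 and AMOTL2 are targets that in turn restrain them.

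With versican, 5 of the 10 genes were lower and 1 was higher. AJUBA, AMOTL2, CCN2, LATS2 and AMOTL1 fell, by between 1.60-fold and 1.19-fold, while WWTR1 rose 1.16-fold. CCN1, ANKRD1, YAP1 and TEAD1 did not pass the test. The test was limma's moderated fit on log2(signal + 16), two-sided, with Benjamini-Hochberg adjustment over 9887 genes and a threshold of 0.05. It used 1 probe set per gene, the brightest, and the genes in the upper 50% by mean, and all 10 passed that filter. Of all genes tested, 41.6% were called in either direction, 20.6% lower and 21.0% higher, so single calls were common on these arrays. Control and versican arrays did not overlap for 9 of the 10 genes, 6 lower and 3 higher, against 52.2% of all tested genes. The median log2 fold change was -0.20 over the 10 genes and 0.01 over all tested genes.

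**Figure D1:**
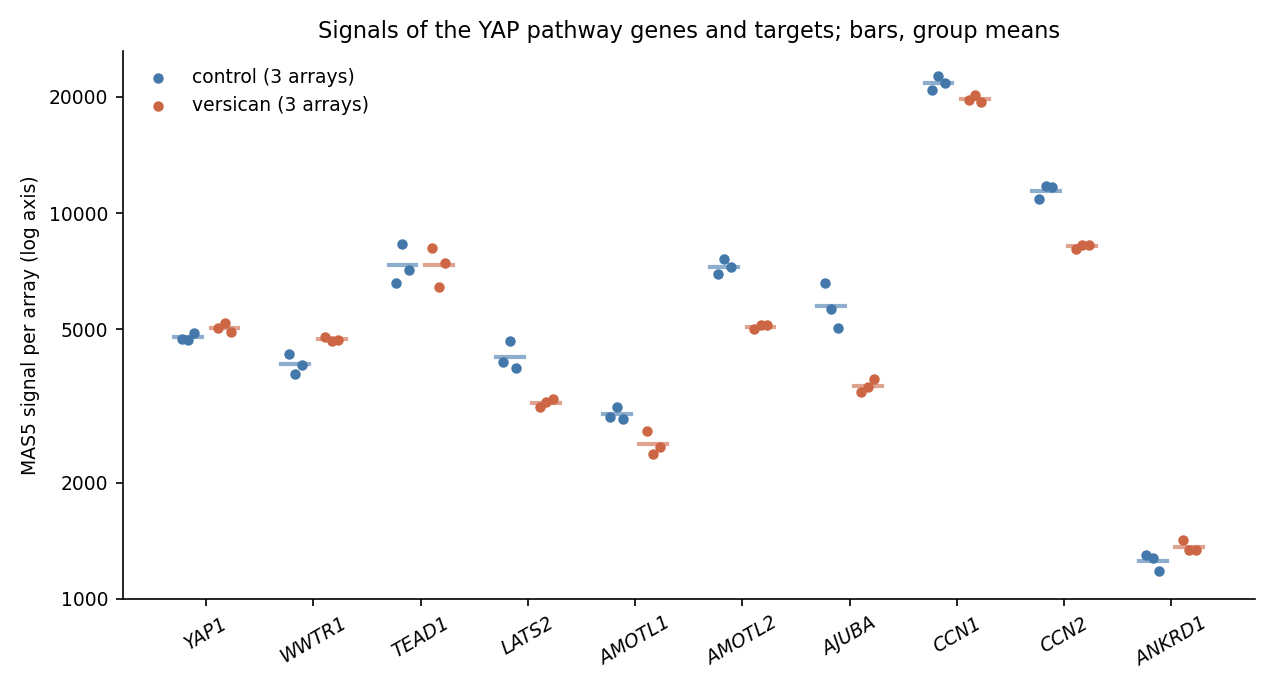
MAS5 signal (log axis) of the brightest probe set of each of the 10 genes in the 3 control and 3 versican arrays; points are arrays and bars are group means. Heights of different genes come from different probes and are not comparable. The versican points of CCN2, AMOTL2, AJUBA, LATS2 and AMOTL1 lie below all control points, those of WWTR1 lie above, and those of TEAD1 are mixed.

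The coactivators came first. YAP1 gave signals of 4716, 4677 and 4898 in the control arrays and 5038, 5196 and 4907 in the versican arrays. The lowest versican array lay only just above the highest control array. The log2 fold change was 0.08 (SE 0.05, 95% confidence interval -0.02 to 0.19, adjusted p = 0.19), so a change beyond that interval was not found. Its probe sets disagreed. In a second limma fit with each of 18891 probe sets as its own unit, in which 37.5% were called (18.7% higher and 18.9% lower), probe set 213342_at was higher (log2 0.17, SE 0.06, adjusted p = 0.042). Without any of 4 of the 6 arrays it missed the threshold, namely control replicates 1 and 2 and versican replicates 1 and 3 (adjusted p = 0.093, 0.12, 0.17 and 0.073), and 224895_at had a log2 fold change of -0.02 (adjusted p = 0.82).

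WWTR1, which encodes TAZ, gave 4314, 3818 and 4032 in control and 4786, 4652 and 4677 in versican arrays. Every versican array was above every control array. The rise was 1.16-fold (log2 0.22, SE 0.05, adjusted p = 0.0097). A dimmer probe set, 202132_at, went from 784 ± 75 to 1016 ± 68 (SD, n = 3 each) and rose 1.29-fold (log2 0.37, SE 0.09, adjusted p = 0.0079), and the dimmest, 202134_s_at, had a log2 fold change of 0.26 (adjusted p = 0.21). The WWTR1 call was lost when arrays were centred on their medians (log2 0.24, adjusted p = 0.09).

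TEAD1, the TEAD family member on this list, gave 6575, 8321 and 7112 in control and 8106, 6449 and 7404 in versican arrays. The groups overlapped fully. Its log2 fold change was 0.00 (SE 0.10, 95% confidence interval -0.22 to 0.21, adjusted p = 0.99), and its second tested probe set gave -0.04 (SE 0.11, adjusted p = 0.83). The interval leaves room for changes of that size in either direction.

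The 4 genes of the set that act on YAP and TAZ from upstream, LATS2, AMOTL1, AMOTL2 and AJUBA, were lower. LATS2, a terminal kinase of the Hippo cascade, gave 4105, 4654 and 3959 in control and 3145, 3237 and 3306 in versican arrays. No versican array reached the lowest control array, and the versican arrays lay closer together. The fall was 1.31-fold (log2 -0.39, SE 0.06, adjusted p = 8.6e-04). Its probe set 223380_s_at fell by the same measure 1.30-fold (adjusted p = 0.0011), from 2134 ± 150 to 1639 ± 41 (SD, n = 3 each). LATS2's remaining probe sets, 230348_at and 223379_s_at, were too dim for the test, with control means of 148 and 57.

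AMOTL2, an angiomotin family scaffold that binds YAP and is itself a YAP target, gave 6949, 7598 and 7250 in control and 4993, 5126 and 5120 in versican arrays. The gap between the groups was several times the spread within either. It fell 1.43-fold (log2 -0.51, SE 0.05, adjusted p = 2.4e-05) and had a single probe set. AMOTL1, its relative, gave 2965, 3137 and 2926 in control and 2720, 2372 and 2481 in versican arrays. The groups did not overlap, but the highest versican array lay close to the lowest control array. AMOTL1 fell 1.19-fold (log2 -0.25, SE 0.06, adjusted p = 0.0077). This call rested on its brightest probe set: 225459_at and 228840_at had log2 fold changes of -0.16 and -0.14 (adjusted p = 0.31 and 0.50), and the mean of all its probe sets did not pass (log2 -0.15, adjusted p = 0.27), nor did the gene after median centring (adjusted p = 0.088).

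AJUBA, a LIM-domain scaffold of cell junctions that binds and inhibits LATS kinases, was the most changed of the 10 genes. Its signals were 6589, 5655 and 5022 in control and 3441, 3532 and 3715 in versican arrays. Control arrays scattered widely and versican arrays tightly, with no overlap. It fell 1.60-fold (log2 -0.68, SE 0.09, adjusted p = 1.5e-04), the 633rd largest absolute change of the 9887 genes. All 3 of its tested probe sets fell: 1553764_a_at from 3239 ± 130 to 1991 ± 70 and 225807_at from 758 ± 82 to 514 ± 26 (SD, n = 3 each), with log2 fold changes of -0.70 and -0.54 (adjusted p = 8.4e-06 and 0.0016).

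Among the readout genes, CCN2 was clearly lower and CCN1 was not called. CCN2, or connective tissue growth factor, is a secreted matricellular protein. It gave 10848, 11756 and 11710 in control and 8069, 8279 and 8264 in versican arrays. All versican arrays lay well below all control arrays. The fall was 1.39-fold (log2 -0.48, SE 0.05, adjusted p = 4.6e-05), from its only probe set.

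CCN1, or CYR61, belongs to the same matricellular family. Its brightest probe set gave 20844, 22714 and 21721 in control and 19664, 20273 and 19414 in versican arrays. The groups did not overlap. The difference was small in fold and missed the adjusted threshold, with a log2 fold change of -0.14 (SE 0.05, 95% confidence interval -0.26 to -0.01, adjusted p = 0.070). CCN1 passed after quantile normalization (log2 -0.22, adjusted p = 6.5e-04), after cyclic loess (log2 -0.18, adjusted p = 0.0011), with array weights (0.030), with the mean of its probe sets (0.042), without _x_at and _s_at probe sets (0.038) and without control replicate 1 (0.025). In the other 13 alternatives CCN1 was still not called, with adjusted p = 0.58 after median centring and 0.14 with no filter. Its second probe set, 201289_at, was only just called in the probe set fit (log2 -0.15, adjusted p = 0.049) and was lost without any 1 array except control replicate 1. That probe set was also lost after median centring (0.50) and with replicate number as a block (0.068).

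ANKRD1, a nuclear ankyrin repeat protein of muscle and stretched cells, gave 1304, 1274 and 1182 in control and 1418, 1342 and 1339 in versican arrays. Here the versican arrays were the higher ones, without overlap. The log2 fold change of 0.12 did not pass (SE 0.06, 95% confidence interval -0.02 to 0.26, adjusted p = 0.14). CCN2 and ANKRD1 thus lay on opposite sides of 0, and the interval of ANKRD1 excludes a fall of the size measured for CCN2.

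Both genes have repeats of the TEAD-binding hexamer in front of their start, which is why their sequences are shown. The hexamer GGAATG was searched on both strands in the 250 bases before each RefSeq gene start (GRCh38.p14), written in the direction of the gene with matches in capitals. CCN2 is at chr6:131951373-131951622 and ANKRD1 at chr10:90921088-90921337, both on the minus strand.
CCN2: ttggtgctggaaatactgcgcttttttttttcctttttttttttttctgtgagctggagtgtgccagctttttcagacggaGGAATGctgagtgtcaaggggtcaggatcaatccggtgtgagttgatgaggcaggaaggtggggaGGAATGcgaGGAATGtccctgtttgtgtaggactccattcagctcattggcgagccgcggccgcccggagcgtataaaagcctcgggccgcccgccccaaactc
ANKRD1: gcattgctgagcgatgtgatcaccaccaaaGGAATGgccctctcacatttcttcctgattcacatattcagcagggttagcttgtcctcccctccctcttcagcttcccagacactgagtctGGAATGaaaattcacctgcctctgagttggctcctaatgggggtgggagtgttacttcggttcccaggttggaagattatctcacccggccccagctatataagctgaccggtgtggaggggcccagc

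CCN2 held 3 matches, whose first bases lie 169, 104 and 95 bases before the start, and ANKRD1 held 2, at 220 and 128 bases. Of 35116 such windows in the RefSeq table, 11.9% held at least 1 match, 0.940% at least 2 and 0.0826% (29 windows) at least 3. Windows were found for 8 of the 10 genes, and those of 5 held a match. CCN1 and TEAD1 had no entry. AMOTL2 and AJUBA each had 1 match, before the second of their 2 listed starts, and YAP1 had 1. Their 30-base surroundings are given for comparison with the repeats above, at chr3:134374499-134374528 (minus strand), chr14:22976884-22976913 (minus strand) and chr11:102110273-102110302 (plus strand).
AMOTL2: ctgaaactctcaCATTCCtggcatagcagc
AJUBA: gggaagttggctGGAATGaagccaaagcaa
YAP1: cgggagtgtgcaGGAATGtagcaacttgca

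The AMOTL2 match lies on the opposite strand, so the hexamer appears as its reverse complement in the printed sequence. LATS2 and AMOTL1, which fell, and WWTR1, which rose, had no match in these windows. A match describes letters and not binding, and distant enhancers, where much TEAD binding occurs, were not examined. Over all tested genes with a window, 14.0% of the 1665 lower genes, 12.0% of the 1765 higher genes and 12.6% of the 4835 genes not called had a match before at least 1 start.

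**Figure D2:**
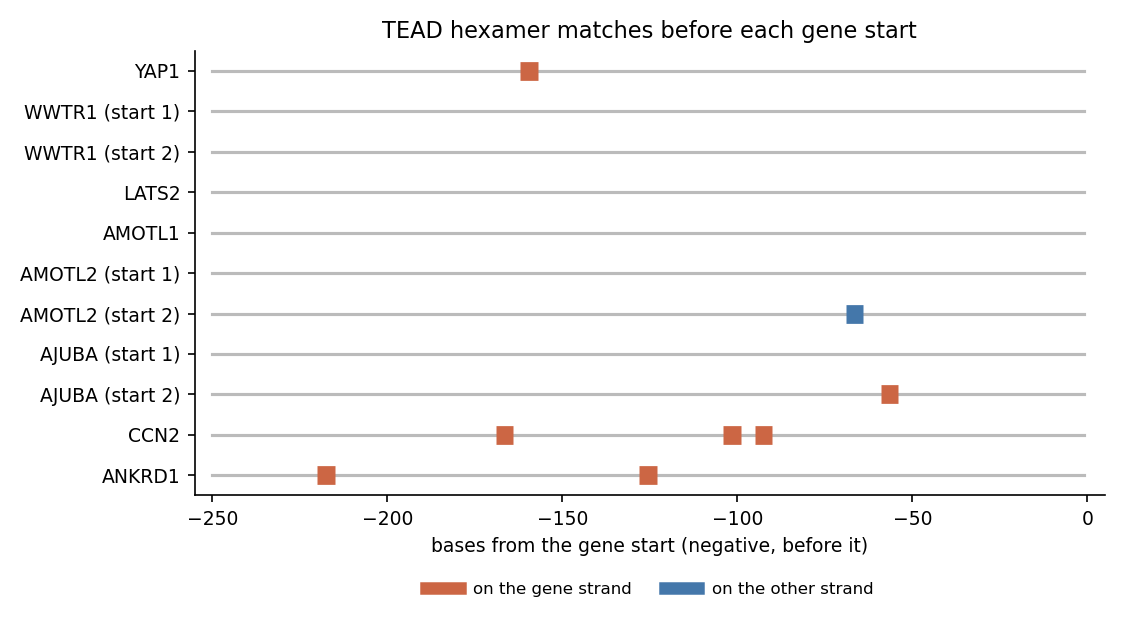
Matches to the TEAD hexamer in the 250 bases before each RefSeq start of 8 genes; the horizontal axis is the distance from the start in bases, coloured blocks are matches and grey lines are windows. CCN2 has 3 matches, ANKRD1 has 2, and AMOTL2, AJUBA and YAP1 have 1 each.

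Counted by probe set, 21 of the 26 were bright enough for the test. Of these, 9 fell, 3 rose and 9 did not pass, against 18.9% lower and 18.7% higher over all 18891. The 9 that fell were 3 of AJUBA, 2 of LATS2 and 1 each of CCN1, CCN2, AMOTL1 and AMOTL2, and probe sets of 1 gene share their transcript. No probe set was called opposite to another of the same gene. The 5 dim probe sets had mean signals below 201 and belonged to LATS2 (2), AMOTL1, AJUBA and TEAD1. For AJUBA's, 243446_at, signals were 105, 58.9 and 71.2 in control and 49.9, 53.6 and 42.4 in versican arrays, without overlap (two-sided exact permutation p = 0.10, which is the lowest value possible with 3 arrays a group).

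**Figure D3:**
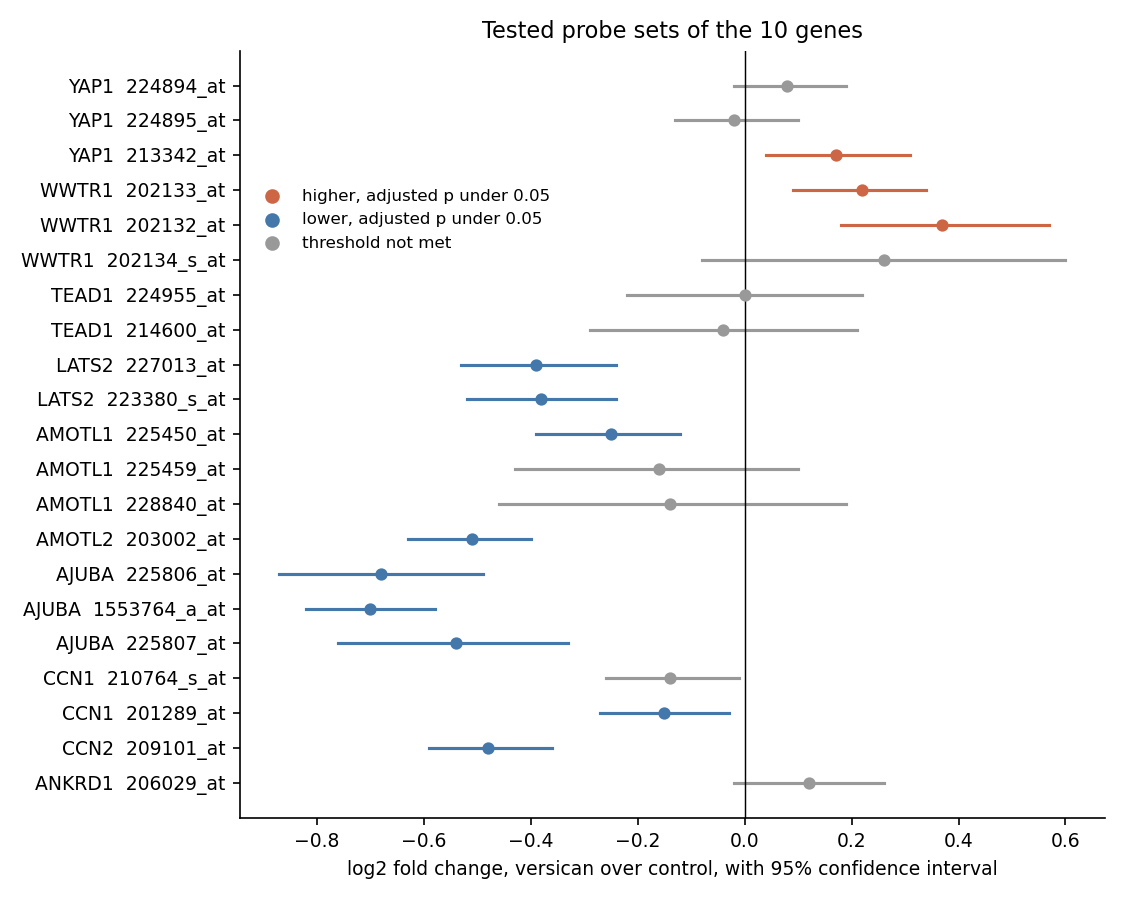
Log2 fold change, versican over control, of the 21 tested probe sets with 95% confidence intervals from limma; colours show the call in the probe set fit. The intervals of AJUBA, AMOTL2, CCN2 and LATS2 lie well below 0, and those of TEAD1 span it.

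Whether related genes changed unequally was asked within each array, where the array's scale cancels. The offset between probes of different genes has no meaning, so only its shift between groups is read. The log2 difference CCN1 minus CCN2 was 0.94, 0.95 and 0.89 in control and 1.28, 1.29 and 1.23 in versican arrays, a shift of 0.34 (SE 0.03) without overlap, CCN2 being lower relative to CCN1 in the versican arrays. AMOTL2 minus AMOTL1 went from 1.22, 1.27 and 1.30 to 0.87, 1.11 and 1.04, a shift of -0.26 (SE 0.07), again without overlap. The shift was -0.36 when the probe sets of each gene were averaged.

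LATS2 minus LATS1 shifted by -0.29 (SE 0.16) and YAP1 minus WWTR1 by -0.13 (SE 0.06), both with overlapping groups. LATS1, the paralog kinase, stood at -0.10 in log2 fold change (SE 0.11, adjusted p = 0.51), and at 0.02 without control replicate 1. TEAD1 minus TEAD4 went from 4.01, 4.33 and 4.30 in control to 3.98, 3.73 and 3.89 in versican arrays. The shift was -0.34 (SE 0.13), with the groups only just apart, and -0.26 when the probe sets of each gene were averaged. The exact permutation test (two-sided) gave p = 0.10 for the CCN, AMOTL and TEAD pairs and 0.20 for the other 2. Adjusted over the 5 pairs these were 0.167 and 0.20, and 3 against 3 arrays cannot go below 0.10 before adjustment.

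**Figure D4:**
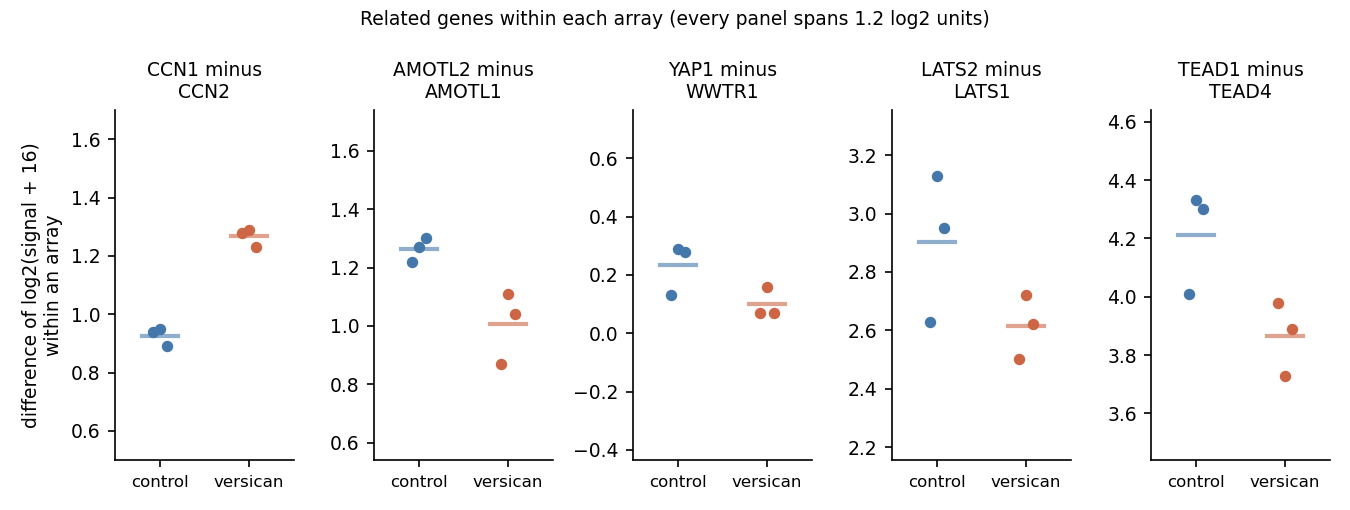
Difference of log2(signal + 16) between 2 related genes within each array, for 3 control and 3 versican arrays; points are arrays and bars are group means, and every panel spans the same range. Groups are apart for CCN1 minus CCN2 and AMOTL2 minus AMOTL1, only just apart for TEAD1 minus TEAD4, and overlap for the other 2 pairs.

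The wider pathway was described by lists of named genes. Of 17 further genes known as YAP or TAZ targets, 16 were measured and tested: 8 fell, 3 rose and 5 did not pass, against 20.6% lower and 21.0% higher over all tested genes. Their median log2 fold change was -0.25. CCDC80, a secreted matrix protein, gave 4249, 4230 and 3813 in control and 1349, 1326 and 1318 in versican arrays. It fell 3.05-fold (log2 -1.61, SE 0.06, adjusted p = 9.2e-08), more than any of the 10 genes above. TGFB2, a TGF-beta ligand, and CRIM1, a membrane protein that binds bone morphogenetic proteins, both fell 1.77-fold (adjusted p = 2.4e-06 and 1.1e-05). F3, the coagulation initiator tissue factor, fell 1.51-fold (adjusted p = 1.8e-05).

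The other 4 that fell, named after their values were seen, were ARHGEF17, RBMS3, IGFBP3 and ASAP1, with log2 fold changes of -0.64, -0.49, -0.45 and -0.39. In the probe set fit the 4 further probe sets of ASAP1 were not called (log2 -0.17 to -0.09), and averaging its probe sets gave -0.17 for the gene (adjusted p = 0.033). FJX1, a Four-jointed family protein, went from 681, 542 and 587 to 1048, 1146 and 1166, the opposite direction. It rose 1.84-fold (log2 0.88, SE 0.09, adjusted p = 4.3e-05). NT5E, the ecto-nucleotidase CD73, rose 1.37-fold (log2 0.45, adjusted p = 0.0030; 0.26 with averaged probe sets). PTPN14, a phosphatase that binds YAP, was the third, at 1.14-fold (adjusted p = 0.037), and its call was not firm, as given with the Hippo genes. The target genes therefore did not move in a single direction. Of 11 of them with a promoter window, 4 had a hexamer match, and TGFB2 was the only one of the 5 lower genes among these with one.

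TEAD partners and cofactors were led by VGLL1, a cofactor that binds TEAD in its own right. Its signals were 5228, 5146 and 5140 in control and 2564, 2480 and 2500 in versican arrays. No array of one group came near the other. VGLL1 fell 2.05-fold (log2 -1.04, SE 0.04, adjusted p = 2.5e-07), and its second probe set gave a log2 fold change of -1.16. Averaging all its probe sets gave -0.68 (adjusted p = 7.9e-04). Here and for other genes, such averages include probe sets too dim for the probe set fit. VGLL3, of the same family, fell 1.65-fold (log2 -0.72, SE 0.12, adjusted p = 0.0010). Of 8 tested genes of this list 4 fell, 1 rose and 3 did not pass, with a median of -0.25, where 20.6% of all tested genes fell and 21.0% rose.

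The TEAD factors differed among themselves. TEAD2 and TEAD3 fell by 0.26 and 0.30 on the log2 scale (adjusted p = 0.0081 and 0.036), and TEAD4, at 394, 398 and 346 in control and 499, 470 and 483 in versican arrays, rose 1.27-fold (adjusted p = 0.015). Their calls were not firm. TEAD4's second probe set had a log2 fold change of 0.06 (adjusted p = 0.70), and TEAD4 missed the threshold without control replicate 3 (0.057), without versican replicate 1 (0.055) and with averaged probe sets (0.082). TEAD2 missed it after median centring (0.076) and with averaged probe sets (0.11). TEAD3 missed it after median centring (0.051) and without control replicate 1 or 3 or any 1 versican array (0.058 to 0.12).

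The Hippo cascade and its upstream brakes showed no common direction: of 18 tested genes 3 rose, 3 fell and 12 did not pass, with a median of 0.00. Over all tested genes 41.6% were called, so the list held no excess of calls. STK3, the kinase MST2 at the head of the cascade, gave 7258, 7370 and 7205 in control and 5170, 5475 and 5119 in versican arrays. It fell 1.38-fold (log2 -0.47, SE 0.05, adjusted p = 3.3e-05), and missed the threshold when dimmer, untested probe sets were averaged in (log2 -0.34, adjusted p = 0.056). Its paralog STK4 (MST1), named after its values were seen, was not called (log2 0.13, adjusted p = 0.070). FAT4, an atypical cadherin, fell 1.83-fold (log2 -0.87, SE 0.21, adjusted p = 0.0072). Its versican arrays read 805, 407 and 763, and without the lowest, replicate 2, the log2 fold change was -0.56 (adjusted p = 6.4e-04). WWC1, the scaffold KIBRA, fell 1.13-fold (log2 -0.18, adjusted p = 0.012). It missed the threshold without _x_at and _s_at probe sets (0.12), without versican replicate 1 (0.064) and after median centring (0.29), and stood at -0.30 with averaged probe sets.

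MAP4K4, a kinase that can phosphorylate LATS alongside MST1 and MST2, rose 1.28-fold (log2 0.36, SE 0.05, adjusted p = 4.5e-04), and 3 of its 4 further probe sets were called higher. FRMD6, a FERM-domain scaffold, and PTPN14 were called higher by their brightest probe sets only, 1.13-fold and 1.14-fold (adjusted p = 0.029 and 0.037). The other FRMD6 probe set was at -0.14 and the 3 others of PTPN14 at -0.02 to 0.11 in log2, none called. Averaged over probe sets, FRMD6 stood at 0.01 (0.90) and PTPN14 at 0.07 (0.28). Both missed the threshold with no filter (0.058 and 0.070), after median centring (0.23 and 0.18) and with no intensity trend (0.064 and 0.078). Both were also lost without control replicate 1 (0.069 and 0.083) or 3 (0.070 and 0.11) and without versican replicate 1 (0.059 and 0.068) or 2 (0.077 and 0.12), and FRMD6 also without versican replicate 3 (0.092). Without control replicate 1 or versican replicate 1, only 1 gene of the list was called higher.

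SRF, its coactivators MRTFA and MRTFB, and their targets were included as 1 list because CCN1, CCN2 and ANKRD1 also respond to that actin-sensing pathway. Of 11 tested genes 5 fell and none rose in limma's test, nor did any rise at an unadjusted p under 0.05 (0 genes), with a median of -0.20. Over all tested genes 20.6% fell and 21.0% rose. FHL2, a LIM-domain cofactor, gave 10146, 10606 and 10959 in control and 6009, 6316 and 6191 in versican arrays, a clear gap. It fell 1.71-fold (log2 -0.77, SE 0.05, adjusted p = 1.9e-06). TAGLN, ACTA2 and MYL9, proteins of the contractile cytoskeleton, fell 1.48-fold, 1.53-fold and 1.36-fold (adjusted p = 6.4e-05, 6.9e-04 and 0.0041), and TAGLN stood at -0.35 with averaged probe sets. TPM1, a tropomyosin named after its values were seen, fell by 0.20 on the log2 scale (adjusted p = 0.0069). It missed the threshold after median centring (0.32), and stood at -0.62 without _x_at and _s_at probe sets. SRF itself was not called (log2 0.17, adjusted p = 0.14). All 6 CCN and ankyrin repeat relatives, CCN3 to CCN6, ANKRD2 and ANKRD23, lay below the filter.

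**Figure D5:**
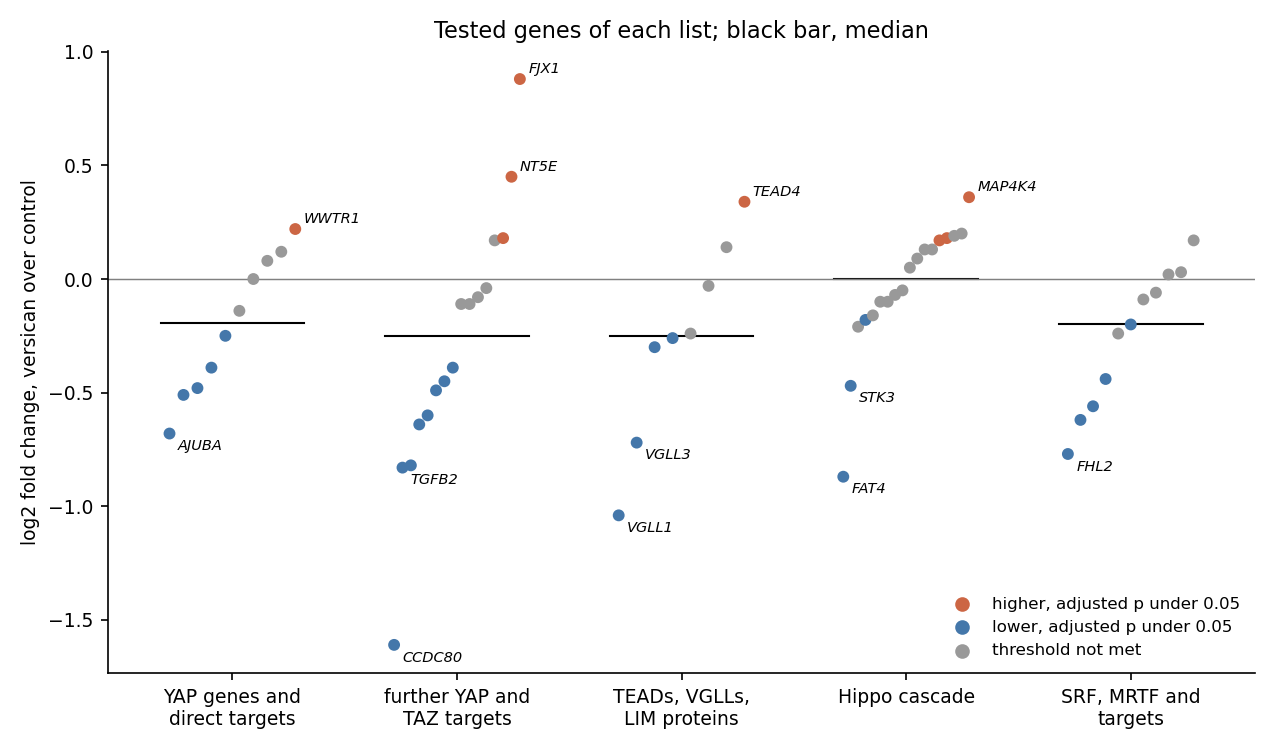
Log2 fold change, versican over control, of each tested gene in 5 lists; points are genes coloured by call, and black bars are list medians. The further YAP and TAZ targets run from CCDC80 at -1.61 to FJX1 at 0.88, and no SRF or MRTF gene was called higher.

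The cells carried the markers of an epithelial line: all 7 epithelial markers passed the filter, with summed signals of 89221 to 104112 in control and 94932 to 96965 in versican arrays. Of these, PAX8 rose by 0.90 and KRT19 fell by 0.21 on the log2 scale (adjusted p = 6.1e-06 and 0.016), and the other 5 were not called. KRT19 missed the threshold without control replicate 3 (0.075) or versican replicate 1 (0.065), after median centring (0.31) and with averaged probe sets (0.20). None of 5 fibroblast, 4 endothelial and 3 measured leukocyte markers passed the filter. Their control means ran from 7.5 (VWF) to 172 (CDH5), none at 0, beside array medians of 62.8 to 75.8 over all probe sets. Fibroblasts express CCN1, CCN2, TAGLN and ACTA2 strongly. The summed fibroblast signal was 206 to 346 in control and 186 to 202 in versican arrays. Of the 5 markers, LUM alone did not overlap, at 97 ± 32 and 38 ± 9 (SD, n = 3 each). DCN went the other way, from a mean of 34 to 40 with overlap, and COL1A2, COL3A1 and PDGFRB overlapped. The part of fibroblast RNA in the lower signals was not tested. In bulk RNA, fewer cells of a type and less RNA per cell cannot be told apart. VCAN, the versican transcript, rose 1.39-fold (log2 0.48, SE 0.07, adjusted p = 6.1e-04), which does not check a treatment with protein. Median signals over all probe sets were 62.8 to 75.8 per array, and arrays correlated at 0.993 to 0.995 within and 0.969 to 0.972 between groups.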

How the data were processed

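The authors deposited probe set intensity values on a linear scale. They come from MAS5, per the submitters' processing notes, whose version and scaling target are not given in the sources used here. MAS5 subtracts mismatch probes, so dim probe sets are noisy. Of 54675 probe sets, 62 were controls, 41091 were paired with 1 gene symbol by GEO's platform annotation, 1801 with several, and 11721 were unnamed here. Older symbols were replaced by gene identifier (41037 of 41091, GRCh38.p14 table). The limma package (3.58.1, under R 4.3.3) was fitted to log2(signal + 16) by lmFit and eBayes with an intensity trend, without further normalization. Fold changes refer to this scale, which shrinks those of dim genes. In the gene fit the brightest probe set stood for a gene. In the probe set fit all 18891 non-control probe sets reaching the same lowest mean signal (201) were tested. The fit was tested on simulated data. Values outside it were compared by exact permutation. The number of arrays, 6, limits the precision.

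The 10 genes and the lists were chosen with earlier results of these data known, so their counts are descriptions. Named from each list were up to 4 called genes per direction with the smallest p whose groups do not overlap, the paralogs, the markers, VCAN and, for CCN1 and CCN2, the 3 genes with the most alike pattern. Others are said to be chosen after their values were seen. Other settings tried concerned the pseudocount (1 or 64), the filter (none, or the upper 25% of genes), the scaling (quantile, cyclic loess, or centring on array medians) and the variance model (no trend, robust fit, array weights). Array medians, 62.8 to 75.8, lie below 201, the lowest mean signal tested, so centring used the range of dim probe sets. Probe sets were also averaged per gene, those too dim for the probe set fit included, or limited to those without _x_at and _s_at suffixes. Replicate number was used as a block, and every array was left out once. No coordinates other than those of the RefSeq promoter windows were used.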

Additional observations from a re-analysis of the deposited data

How the results depend on the processing

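AJUBA, AMOTL2, CCN2 and LATS2 kept their direction and call under all 19 alternatives run (log2 -0.77 to -0.58, -0.55 to -0.48, -0.52 to -0.46 and -0.44 to -0.32). No scaling moved the median of all genes by more than 0.03. With no filter 1 Hippo gene was called higher. Among the upper 25% of genes 1290 rose and 1131 fell in all, and 0 TEAD-list genes rose, 2 fell and 2 SRF-list genes fell, with fewer genes tested. After median centring 0 of the 10 genes and 1 of their probe sets were called higher, 1 Hippo gene was higher and 2 TEAD-list genes lower. TEAD1 then stood at 0.02 (also its probe set 224955_at) and YAP1 224895_at at 0.00. With array weights TEAD1 was at 0.04. With averaged probe sets 1 Hippo and 0 TEAD-list genes were higher, 3 SRF-list genes lower, and AMOTL2 minus AMOTL1 was -0.36. ACTA2 and MYL9 of the SRF list then lay below the filter and were not tested. Without _x_at and _s_at probe sets 2 TEAD-list and 2 SRF-list genes were lower. VGLL1, TEAD3, FHL2, TAGLN and MYL9, each called lower in the gene fit by an _s_at probe set, had then left the test. The cause of the other changes in call was not tested. Leaving out 1 array gave 1 to 3 Hippo and 0 to 1 TEAD-list genes higher, -0.08 to 0.09 for TEAD1 and 224955_at, -0.11 to 0.06 for TEAD1 214600_at, -0.05 to 0.02 for YAP1 224895_at and -0.17 to 0.02 for LATS1. Same-numbered arrays deviated together with correlations of 0.119, -0.019 and -0.090, and 2 of 6 arrays correlated best with their own number, so numbers were not taken as pairs. With the replicate block 2030 genes rose and 1943 fell, and of the 10 genes 1 was higher and 5 lower, as without it. At low signal, noise limits what 3 arrays a group can show.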

Other observations

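The probe sets of STK4, the MST1 kinase, were called in opposite directions: 223746_at lower (log2 -0.36, SE 0.12, adjusted p = 0.034) and 236259_at higher (log2 0.41, SE 0.09, adjusted p = 0.0048), while the brightest was not called. MOB1A, an adaptor of LATS kinases, had 201298_s_at higher (log2 0.32, SE 0.06, adjusted p = 0.0015) and its brightest probe set not called (log2 0.13). TPM1, the tropomyosin, had probe sets 206117_at and 238688_at at log2 fold changes of -0.65 and -0.62, and the other 3 at -0.22 to -0.18. These were chosen after their values were seen.

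CCN3, a relative of CCN1 and CCN2 below the filter, averaged 41.0 ± 14.4 without versican and 82.7 ± 5.9 with it (SD, n = 3 each). The groups did not overlap (two-sided exact permutation p = 0.10, the lowest possible here). The tested genes whose values over the 6 arrays were most like those of CCN2 were FHIP2A, ACSL1 and RAB2A (Pearson r = 0.9997, 0.9992 and 0.9991), and 821 genes had r over 0.95. For CCN1 they were COX5B, WAC and SRPRA (r = 0.9956, 0.9933 and 0.9930), with 150 genes over 0.95. The 6 points share 2 groups, so any gene that differs between groups scores high.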
